A study of Mus musculus with 2 samples.

Results

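The regenerating (Reg) family of secreted lectin-like proteins was described in single cells sorted from mouse pancreas. The members were the 6 Reg genes of the table, Reg1, Reg2, Reg3a, Reg3b, Reg3d and Reg3g, chosen by name from 14789 gene symbols. They were described among acinar cells, taken as the 275 of 728 cells (37.8%, 95% interval 34.2 to 41.4) with at least 10% of their transcripts from 10 digestive enzyme genes (Ctrb1, Try4, Cela1, Prss2, Cela3b, Cpb1, Pnlip, Clps, Cela2a and Cpa1). The other 453 cells served as the comparison. All cells came from adult Tff2CreERT2; R26-tdTomato mice after tamoxifen, in which a Cre recombinase driven by Tff2 switches on a red reporter, so that cells that had used the Tff2 promoter, and cells derived from them, carry the label. Reporter-positive, EpCAM-positive cells negative for CD45 and TER119 were sorted and profiled with 10x Genomics droplets. The labels name 2 biological replicates of this 1 group and no unlabelled or untreated control, and cells could not be assigned to the replicates. The labels state neither the time from tamoxifen to sorting nor the number of mice used here.

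Reg proteins are small secreted proteins built around a C-type lectin domain. Acinar cells, which make and secrete the digestive enzymes, are a main source of Reg proteins in the pancreas, and the family is best known for its rise in pancreatitis and regeneration. Reg1 encodes lithostathine, a protein of pancreatic juice that trypsin cuts into a fibril-forming product, and Reg2 is its closest relative. Reg3b (pancreatitis-associated protein) and Reg3g are also made by gut epithelium, where Reg3g kills Gram-positive bacteria, and Reg3d is related to the islet neogenesis-associated protein. Tff2, which drove the label, encodes a secreted trefoil peptide, and Nupr1 encodes a small chromatin protein induced by stress and in pancreatitis.

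The 6 genes lie together on chromosome 6, between 78370657 and 78468872 (GRCm38, GENCODE M21), a stretch of 98.2 kb. Reg3b (78370657 to 78373466), Reg3a (78380709 to 78383827), Reg2 (78395623 to 78408106) and Reg1 (78422711 to 78428667) are on the plus strand. Reg3d (78375874 to 78378865) and Reg3g (78466269 to 78468872) are on the minus strand. Reg1 and Reg2 are the closest pair, with 74.3% identity between their reference transcripts, followed by Reg3b and Reg3g (69.9%) and Reg3a and Reg3b (69.0%). The longest identical stretch between members was 35 bases, in the coding part of Reg3b (transcript bases 81 to 115) and of Reg3g (bases 56 to 90). It is shown because reads confined to it could not be assigned to 1 of the 2 genes.
Reg3b and Reg3g: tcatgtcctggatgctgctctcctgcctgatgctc
Of the 31-base words in each reference transcript, 5 of Reg3b (0.664%) occurred in another gene, Reg3g, and 5 of Reg3g (0.675%) in Reg3b. For Reg1, Reg2, Reg3a and Reg3d, 0 words occurred in any other annotated gene. Whether counts were split between Reg3b and Reg3g at this stretch was not tested, so the values of these 2 genes carry that uncertainty.

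Sequence upstream of 4 of the 6 genes is shown, Reg1 and Reg2 for a spaced motif they share and Reg3d and Reg3g as examples of Reg3 genes without it. Sequences run from 250 to 111 bases before the RefSeq start (GRCm38.p6), 5′ to 3′ on the gene's strand. The RefSeq starts of Reg1 and Reg2 lie inside the GENCODE spans given above, which begin further upstream. Capitals mark CANCTG (the letters of an E-box), the element TTCCC and the TATA box letters TATAAA, each on either strand. TATAAA also lay 30 to 25 bases before the start of Reg1 and Reg2, 29 to 24 before that of Reg3b and 27 to 22 before that of Reg3g, outside the stretches shown, and these letters were not in the windows of Reg3a and Reg3d.
Reg1 (chr6:78425733-78425872, plus strand): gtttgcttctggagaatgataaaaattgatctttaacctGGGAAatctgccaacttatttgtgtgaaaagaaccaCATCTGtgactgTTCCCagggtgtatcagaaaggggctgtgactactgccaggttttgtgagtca
Reg2 (chr6:78404905-78405044, plus strand): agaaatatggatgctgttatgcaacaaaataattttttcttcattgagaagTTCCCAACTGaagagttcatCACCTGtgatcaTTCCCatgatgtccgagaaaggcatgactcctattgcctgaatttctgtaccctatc
Reg3d (chr6:78378976-78379115, minus strand): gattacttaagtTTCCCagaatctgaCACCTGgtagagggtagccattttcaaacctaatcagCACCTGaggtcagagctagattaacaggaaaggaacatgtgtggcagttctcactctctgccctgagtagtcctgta
Reg3g (chr6:78468985-78469124, minus strand): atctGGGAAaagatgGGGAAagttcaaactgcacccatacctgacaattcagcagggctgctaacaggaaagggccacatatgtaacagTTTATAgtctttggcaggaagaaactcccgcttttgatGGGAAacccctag
In Reg1 and Reg2, CANCTG is followed after 6 bases by TTCCC, 175 to 159 bases before the start of Reg1 and 179 to 163 bases before that of Reg2. A CANCTG box with a TTCCC element is the arrangement known for sites of the acinar PTF1 complex. None of the 4 Reg3 genes had this spacing in the 250 bases before the start. It was present in 30 of 32851 RefSeq windows of that length (0.0913%) and in 0 of the 9 rule enzyme genes that have a window. CANCTG alone occurred in 44.8% of windows, TTCCC alone in 56.2% and TATAAA in 12.4%. The single motifs are parts of the spaced one, and in Reg2 a further CANCTG and TTCCC overlap each other. In all, 10 motifs were searched on both strands, the others being GATAA (22.6% of windows), the AP-1 type TGANTCA (6.75%), TTCCCA (21.6%), a shorter form of the spaced motif and a pair of STAT-type palindromes. The spaced motif was chosen after the members' sequences had been read. The match is a description of letters, not of a bound site.

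Before the levels, 3 facts about the cells bear on them. The 275 acinar cells held 1179733 unique molecular identifiers (UMIs, counted transcripts), with a median of 2117 per cell (1004 to 53222), and the other cells 1173275, with a median of 2079. The acinar markers outside the rule fitted the name, at 89336 CPM (UMIs per 1000000 UMIs) in acinar and 2471 in other cells, with none of the 16 measured markers at 0 in acinar cells. Despite the sort, the other cells were mainly endothelial-like (169), B or plasma-like (100) and T or NK-like (88), with 36 ductal-like cells. Nearest the 10% rule, the 3 acinar cells with the least enzyme RNA had 11.4%, 13.7% and 14.2%, and the 3 other cells with the most had 8.94%, 7.51% and 7.29%. Barcodes ended in 1 (229 acinar cells) or 2 (46 acinar cells), and 7 barcode sequences occurred under both endings, all 14 cells being acinar. Intervals are exact 95% intervals for counting error only. They cover neither mice nor libraries, and with 1 pooled sample no test was made.

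Reg1 was by far the most abundant Reg transcript. It was detected in every acinar cell (275 of 275, 98.7 to 100), with a lowest level of 991 CPM, a median of 20242 and a highest of 53131 CPM per cell. Summed over acinar cells it stood at 22119 CPM (21851 to 22389). It made up 85.6% of the 30483 Reg UMIs and ranked 13 among all gene symbols by acinar UMIs. The next Reg gene was about an order of magnitude lower.

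Reg2 was detected in 238 of 275 acinar cells (86.5%, 81.9 to 90.3) at 2380 CPM (2293 to 2470). Per cell it ran from 0 through a median of 1606 to 18270 CPM, so that single cells reached the lower part of the Reg1 range. When each cell was thinned at random to 1000 UMIs, so that cells of unequal depth could be compared, Reg1 was still seen in 100% of acinar cells and Reg2 in 72.7%.

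The Reg3 genes were 1 to 3 orders of magnitude below Reg1. Reg3b stood at 798 CPM (748 to 851) and was seen in 155 of 275 cells (56.4%, 50.3 to 62.3), with a median of 370 and a highest level of 3984 CPM per cell. Reg3d followed at 329 CPM (297 to 363) in 145 cells (52.7%, 46.6 to 58.8), with a median of 155 and a highest level of 1919 CPM. Reg3a stood at 167 CPM (144 to 192) in 79 cells (28.7%, 23.5 to 34.5), with a highest level of 1868 CPM. Reg3g was the rarest, at 45.8 CPM (34.4 to 59.7) in 30 cells (10.9%, 7.48 to 15.2), with at most 5 UMIs in a cell. The median acinar cell had no UMI of Reg3a or Reg3g. After thinning, the shares fell to 36.7% for Reg3b, 24.0% for Reg3d, 11.3% for Reg3a and 2.55% for Reg3g. These shares therefore depend on depth, and a cell without a UMI is not shown to lack the transcript.

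Divided by transcript length, the order of the levels was the same, from 28763 CPM per kb for Reg1 through 3410 for Reg2, 1020 for Reg3b, 421 for Reg3d and 202 for Reg3a to 59.4 for Reg3g. The intervals of neighbouring genes in the CPM order did not overlap. The 6 genes together took 2.58% of acinar UMIs, from 0.0991% of a cell's UMIs through a median of 2.42% to 5.88%. With the 10 enzymes left out of the totals, all CPM values were higher, Reg1 at 47403 and Reg2 at 5101 CPM.

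**Figure D1:**
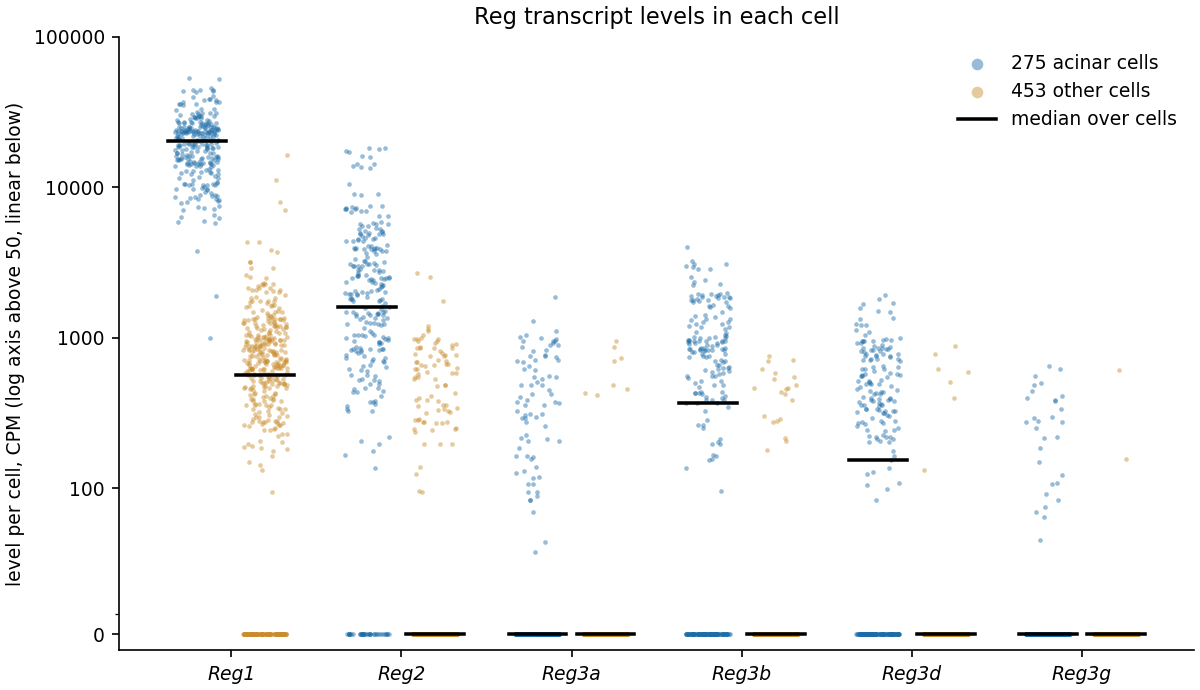
Level of each Reg gene per cell in CPM (vertical axis, logarithmic with a linear stretch near 0), with 275 acinar cells in blue, 453 other cells in yellow and the median over cells as a black line. Reg1 is above 0 in all acinar cells, with a median of 20242 CPM against 567 CPM in other cells, while the median of Reg3a and Reg3g is 0 in both.

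All 6 Reg genes had a higher level in acinar than in other cells. Reg1 was 35.02 times higher (32.6 to 37.7), at 632 CPM in other cells, and Reg2 25.9 times (21.3 to 31.6), at 92.1 CPM. Among the Reg3 genes, Reg3d had the highest ratio, 55.1 (26.5 to 138), followed by Reg3b at 42.6 (28.0 to 68.3), Reg3g at 26.9 (7.08 to 227) and Reg3a at 24.5 (12.2 to 57.5). The Reg3 ratios rest on 22 UMIs of Reg3b, 8 of Reg3a, 7 of Reg3d and 2 of Reg3g in other cells. All 6 passed a 2-fold rule, which 3.85% of the 3615 genes with at least 50 UMIs passed in that direction. This minimum counts both sets together, and the 4 Reg3 genes reached it only through their acinar UMIs. Their passing is thus not independent of the minimum, and only Reg1 and Reg2 would reach it in either set alone. The median gene was lower in acinar cells, by a log2 ratio of -2.57, and 85.3% of genes were at least 2-fold lower there. The 10 enzymes took 53.3% of the UMIs of acinar cells and 1.36% of those of other cells. With the enzymes off the totals the median was -1.49, with 7.16% of genes past the rule upward and 62.7% downward, and the Reg ratios ran from 51.8 for Reg3a to 117 for Reg3d. Tff2 had a ratio of 73.1 (60.3 to 89.3) and Nupr1 of 13.3 (11.8 to 15.01), and all 6 Reg ratios lay between these values. Of the 302 Nupr1 UMIs in other cells, 110 were in 5 acinar-like cells outside the rule, and without these cells, a step chosen after the data were seen, the Nupr1 ratio was 20.8 (18.0 to 24.2) and that of Reg1 37.6 (34.8 to 40.6).

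Reg1 was detected in 74.4% of the other cells (70.1 to 78.4) and, after thinning, in 43.9%. In some types not known to make it, the share was 73.4% in endothelial-like cells (median depth 1870 UMIs), 71.0% in B or plasma-like cells (1622.5) and 72.7% in T or NK-like cells (2472.5). It was higher in the deeper erythroid-like (82.4%, 5476) and mesenchymal-like cells (94.4%, 3586). In ductal-like cells (3171) and macrophage or dendritic-like cells (2320.5) it was 75%. After thinning it was 30.6% in ductal-like, 45.0% in endothelial-like, 47.0% in B or plasma-like and 43.2% in T or NK-like cells. Over all these classes the thinned share ran from 29.4% in erythroid-like to 50% in mesenchymal-like cells. The ductal-like share is thus not read as Reg1 expression in duct cells. Reg2 was seen in 19.0% of other cells (15.5 to 22.9), with 24.3% in endothelial-like and 11.1% in ductal-like cells. Any Reg3 gene was seen in 8.39% of other cells (6.00 to 11.3), against 74.5% of acinar cells.

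Enzyme transcripts were present in the other cells too, and the Reg genes were set against them. Per 1000 UMIs of the 10 enzymes, Reg1 had 41.5 UMIs in acinar cells (41.0 to 42.0) and 46.3 in other cells (43.0 to 49.8), a ratio of 1.12 (1.04 to 1.20). Across the 7 other classes, with 5 acinar-like cells outside the rule set aside, Reg1 ran from 37.0 in ductal-like to 54.3 in mesenchymal-like cells. Each of these 7 intervals included the acinar value of 41.5. Reg2 had 4.46 in acinar and 6.75 in other cells, a ratio of 1.51 (1.24 to 1.83), while for the 4 Reg3 genes the intervals of this ratio included 1. Reg transcripts thus stood to enzyme transcripts in nearly the acinar proportion for Reg1 and above it for Reg2. Tff2 stood below it, at a ratio of 0.535 (0.438 to 0.649), and Nupr1 above it, at 2.94 (2.61 to 3.30). Without the 5 acinar-like cells outside the rule, Nupr1 was at 1.93 (1.66 to 2.23), Reg2 at 1.55 (1.26 to 1.88) and Reg1 at 1.07, with an interval that then included 1 (0.989 to 1.15). The part of free RNA in these counts was not tested. These 5 cells, at 7.19% enzyme UMIs, held Reg1 at 7753 CPM (5824 to 10116). Per 1000 enzyme UMIs they had 108 Reg1 UMIs (81.0 to 141), an interval above the acinar value.

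**Figure D2:**
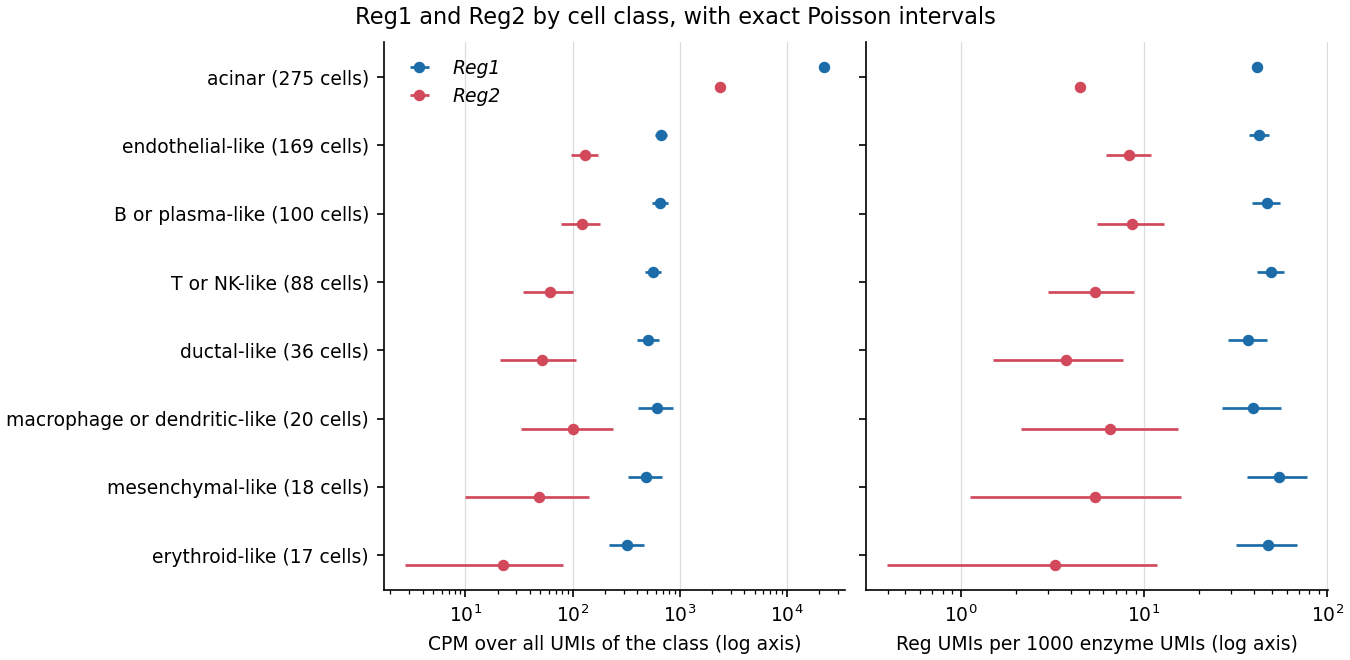
Reg1 (blue) and Reg2 (red) in acinar cells and 7 other classes, as CPM over all UMIs of the class (left) and as UMIs per 1000 enzyme UMIs (right), on logarithmic axes with exact Poisson intervals. Reg1 falls from 22119 CPM in acinar cells to between 325 and 674 CPM in the other classes drawn. Per 1000 enzyme UMIs, Reg1 in all drawn classes lies between 37.0 and 54.3. The 5 acinar-like cells outside the rule are not drawn.

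Reg2 was the most unevenly distributed of the Reg genes that could be measured, and Reg1 and Reg3d the most even. The spread was taken as the coefficient of variation (CV, standard deviation over mean) of the per-cell level after the counting variance was taken off. It was 0.417 for Reg1, 1.18 for Reg2, 0.934 for Reg3b and 0.299 for Reg3d. Among 234 genes with at least 200 acinar UMIs, Reg2 ranked 32 and Reg3b 58 from the widest spread, and Reg1 ranked 203 and Reg3d 225. This ranking joins genes of unlike level. Among ranked genes within 2-fold of its level, Reg1 was ordinary, with 8 of 14 more spread (median 0.448). By the same measure 6 of 33 genes were more spread than Reg2, 18 of 89 than Reg3b and 133 of 142 than Reg3d. Tff2, at 0.492, ranked 194, and Nupr1, at 0.944, ranked 53. Reg3a (197 UMIs) and Reg3g (54) were below the minimum and are not ranked. The 28 cells with the highest Reg2 level, all at or above 6429 CPM, held 40.8% of the summed per-cell level, against 19.4% for the 28 highest Reg1 cells. This share still contains counting error, and it was 39.1% for Reg3b and 38.9% for Reg3d. With the counting variance taken from the pooled level instead, Reg3b stood at 0.742 and Reg3d at 0.150. Without the 5 cells highest in Reg3d, its spread was 0. Leaving out the highest cells of a gene lowers its spread in any case, so this value is not read as a lack of spread.

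Reg1 and Reg2 stood in opposite relations to Tff2. Over the 275 acinar cells, the rank correlation (Spearman's rho, given as a description, since cells share library and depth) of Reg1 with Tff2 was 0.323. It was 0.291 with the enzymes off the totals and 0.326 after thinning. That of Reg2 with Tff2 was -0.210, and -0.226 after thinning. Among the 229 cells whose barcodes end in 1, these correlations were 0.355 for Reg1 and -0.262 for Reg2, and among the 46 ending in 2 they were 0.172 and 0.0244. In the 91 cells lowest in Tff2 (at most 4510 CPM), Reg1 stood at 16359 CPM (15852 to 16879), in the middle 92 at 23024 (22621 to 23433) and in the 92 highest at 24355 (23874 to 24844). Reg2 stood at 3529 CPM (3296 to 3775), 2096 (1976 to 2222) and 2073 (1934 to 2219) in the same order. The per-cell medians, which weight cells equally, were 15608, 19349 and 23400 CPM for Reg1 and 2679, 1232 and 1724 CPM for Reg2. Reg1 was thus lowest and Reg2 highest in the cells lowest in Tff2 on both measures, while the order of the other two groups of cells for Reg2 depended on the measure. Median depths were 1504, 2733.5 and 2665.5 UMIs. The part of depth was not tested beyond the thinning.

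For the Reg3 genes the correlations with Tff2 were weak, from -0.0924 for Reg3d to 0.0915 for Reg3a. After thinning, Reg3d stood at -0.189, near the value of Reg2, and the other Reg3 genes between -0.0559 and 0.0744. Such weak correlations in sparse counts are not read as a relation. In the cells lowest in Tff2, Reg3b stood at 533 CPM (444 to 633). It stood at 831 (756 to 912) in the middle and 914 (823 to 1013) in the highest cells. Its per-cell medians were 0, 395 and 435 CPM. Reg3d went the other way, at 395, 349 and 262 CPM. Reg3a stood at 150, 173 and 170 CPM and Reg3g at 37.5, 42.7 and 54.9, with overlapping intervals. The lowest cells were the shallowest, and the part of depth was not tested. The correlations with Nupr1 ran from -0.170 for Reg2 and -0.101 for Reg1 to 0.133 for Reg3a. After thinning, the 4 Reg3 values with Nupr1 lay between -0.0164 and 0.00740, while Reg2 (-0.132) and Reg1 (-0.109) kept their sign. Reg1 stood at 21202 CPM in the 91 cells lowest in Nupr1, 24731 in the middle 92 and 20917 in the 92 highest, and its per-cell medians were 21155, 20958 and 17925 CPM, so the order depended on the measure. Reg2 stood at 3471 CPM in the lowest, 2113 in the middle and 2117 in the highest. Reg3b stood at 678 CPM (576 to 793), 666 (584 to 756) and 924 (849 to 1005) in the same order. Reg3a (139, 186 and 166 CPM) and Reg3d (326, 353 and 316) were highest in the middle, and Reg3g (47.8, 16.9 and 62.2) lowest there. Median depths were 1622, 2133 and 3105 UMIs, and the part of depth was not tested.

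**Figure D3:**
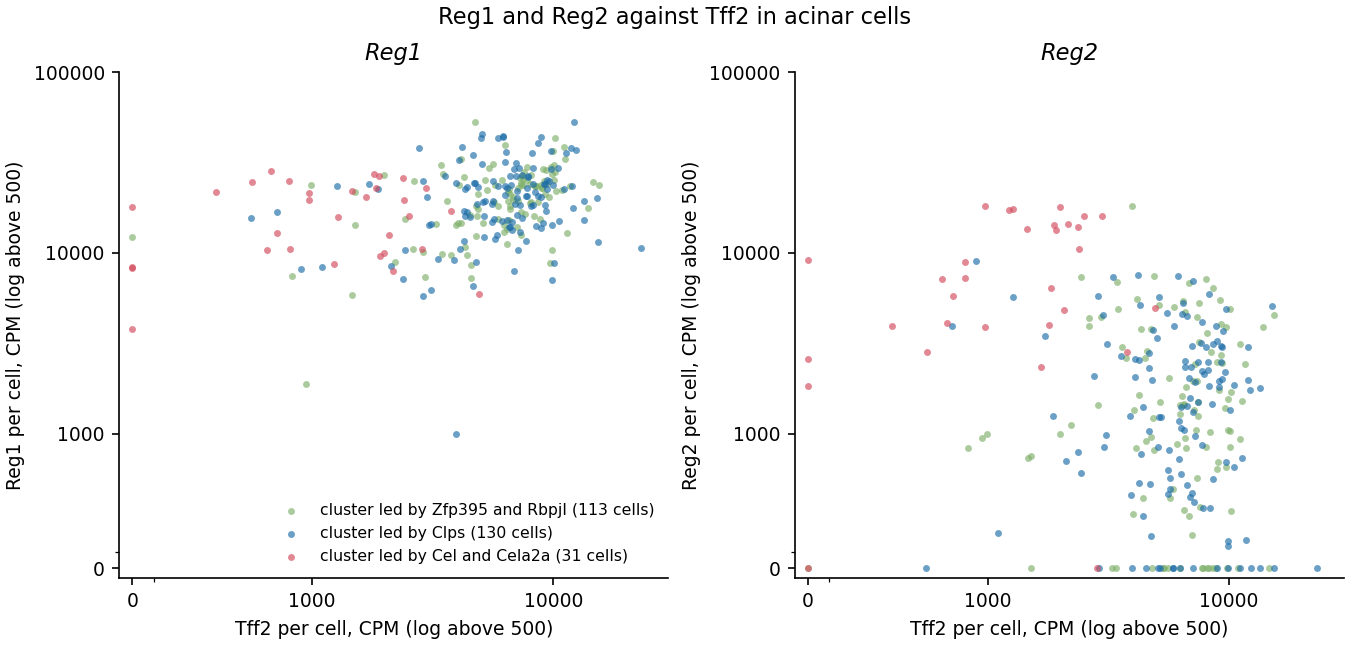
Reg1 (left) and Reg2 (right) against Tff2 per acinar cell, all in CPM on logarithmic axes with a linear stretch near 0, coloured by acinar cluster (1 acinar cell that clustered with endothelial-like cells is not drawn). The 31 cells of the cluster led by Cel and Cela2a sit at low Tff2, with Reg2 at 9071 CPM summed, against 2051 and 2076 CPM in the other two clusters.

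Many of the cells high in Reg2 and low in Tff2 fell into 1 cluster. The acinar cells fell into 3 clusters, built with the 6 Reg genes left out. They were 113 cells led by Zfp395 and Rbpjl, 130 led by the colipase gene Clps, and 31 others. In the 31, Reg2 itself was the leading gene, followed by the lipase Cel and the elastase Cela2a, after which the cluster is named here. In this cluster, Reg2 stood at 9071 CPM (8275 to 9923), 4.39 times the level of the other acinar cells (3.97 to 4.84), and Tff2 at 1464 CPM, 0.214 times (0.169 to 0.268). Of the 28 cells highest in Reg2, 16 were in this cluster, which holds 11.3% of acinar cells. Reg1 there was 0.812 times the level elsewhere (0.760 to 0.866), or 0.976 (0.913 to 1.04) with the enzymes off the totals, on which scale Reg2 was 5.27 times higher. Reg3d had a ratio of 1.80 (1.19 to 2.61), and for Reg3b (1.25, 0.928 to 1.66), Reg3a (1.03, 0.462 to 1.99) and Reg3g (2.68, 0.937 to 6.27, from 6 UMIs there) the interval included 1. By the 2-fold rule, 2 of 6 members, Reg2 and Reg3g, were higher, as were 4.04% of the 668 genes tested, and 62.3% were lower. The median gene had a log2 ratio of -1.44, against -2.21 for Tff2 and -1.50 for Nupr1, so Nupr1 was near the median gene. With the enzymes off the totals Reg3b stood at 1.51 (1.12 to 1.99) and Reg3g at 3.22 (1.13 to 7.54), intervals without 1, and Reg3d also passed the rule (2.16), where 6.44% of genes were higher and 54.3% lower. The leading enzyme genes took part in building the cluster, and Tff2 and Nupr1 were not left out of that step. The low Tff2 and Nupr1 of these cells are therefore not independent of how the cluster was built. Its cells were also shallower, with a median of 1390 UMIs against 1763 and 3704. The part of depth in these values was not tested.

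Without these 31 cells, a step chosen after the data were seen, the correlation of Reg2 with Tff2 was -0.0295, that of Reg2 with Nupr1 -0.0433, and the spread of Reg2 fell to 0.945. Within the clusters, Reg2 and Tff2 had a rho of 0.00760 (113 cells), -0.0781 (130 cells) and 0.327 (31 cells). Reg1 and Tff2 kept a rho of 0.307 without the 31 cells. Within the clusters it was 0.414, 0.199 and 0.0301. With Nupr1, in the same order, Reg1 had -0.239, -0.0444 and -0.281 and Reg2 -0.0259, -0.0593 and -0.330. Reg3a had 0.176, 0.120 and -0.249, and Reg3b -0.0113, 0.245 and -0.140. Reg3d had 0.254, -0.0472 and -0.311, and Reg3g -0.0449, 0.301 and -0.342. The within-cluster values were taken without thinning. Whether these values differ between clusters was not tested. Because Tff2 and Nupr1 were not left out when the clusters were built, correlations without the 31 cells or within clusters are not independent of that grouping.

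**Figure D4:**
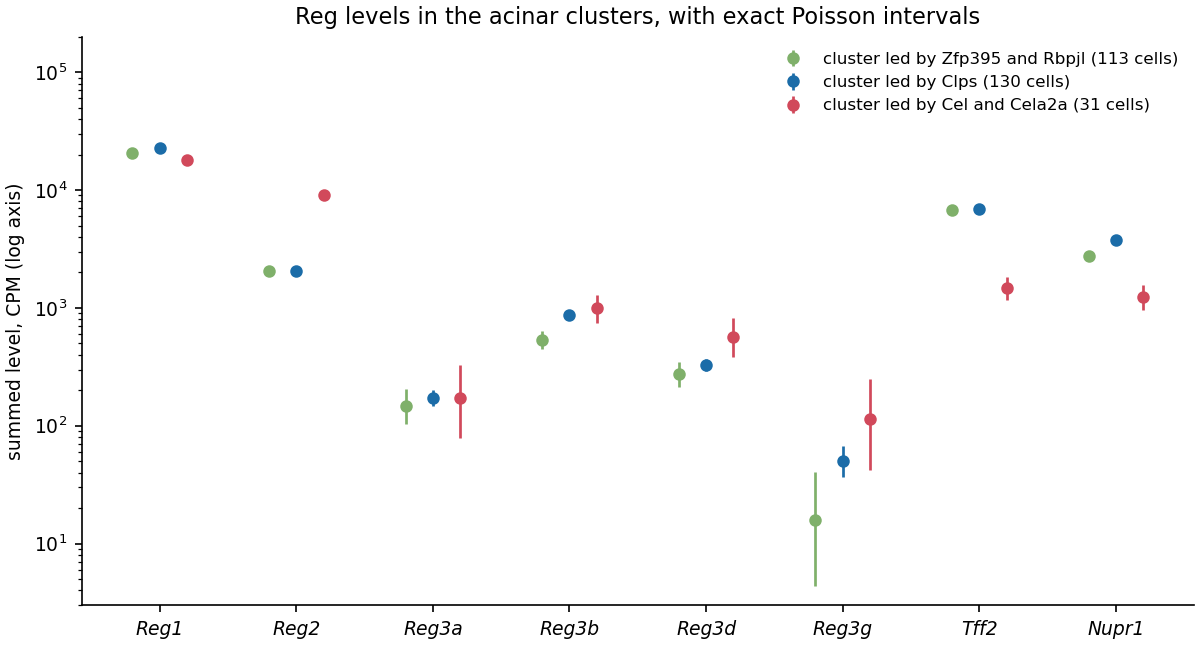
Summed level in CPM (logarithmic axis, exact Poisson intervals) of the 6 Reg genes, Tff2 and Nupr1 in the 3 acinar clusters. Reg2 is highest in the cluster led by Cel and Cela2a (9071 CPM), where Tff2 (1464 CPM) and Nupr1 (1236 CPM) are lowest. The median gene was also lower there, by a log2 ratio of -1.44 against the other acinar cells, with Nupr1 at -1.50 and Tff2 at -2.21.

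Among themselves, the Reg genes covaried weakly. The median rho over the 15 pairs was 0.166, and 0.0346 after thinning. Reg1 and Reg2, the closest relatives and the most abundant members, had a rho near 0 (-0.0150, and 0.101 with the enzymes off the totals). The highest values were among Reg3 genes and between them and Reg2, with 0.326 for Reg3a and Reg3b, 0.258 for Reg3b and Reg3g, 0.253 for Reg2 and Reg3b and 0.236 for Reg3a and Reg3g. After thinning these were 0.160, 0.0346, 0.182 and -0.0575. Reg2 with Reg3d (0.166, and 0.167 after thinning), Reg2 with Reg3a (0.166 and 0.158) and Reg3b with Reg3d (0.189 and 0.168) changed little.

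Cells with more Reg3 genes were deeper. Of 275 acinar cells, 70 had a UMI of none of the 4 Reg3 genes, 75 of 1, 73 of 2, 40 of 3 and 17 of all 4, with median depths of 1441.5, 1746, 2710, 6416 and 11958 UMIs. The rho of per-cell CPM with UMIs was 0.343 for Reg3a, 0.322 for Reg3g, 0.254 for Reg3b and 0.191 for Reg3d. In these ranks all cells without a UMI are tied lowest, so detection enters the values. The 28 cells with the highest CPM had median depths of 1974.5 UMIs for Reg3a, 1894 for Reg3b and 1331 for Reg3d. These lay below the acinar median of 2117, while that for Reg3g was 6948.5. The correlations are thus not read as a level that rises with depth. Reg3b stood at 992 CPM in cells with a Reg3a UMI and at 538 CPM in those without, a ratio of 1.84 (1.60 to 2.13). Among cells at or above the median depth, the ratio was 1.73 (1.47 to 2.04), and below it 1.79 (0.974 to 3.08), where the interval included 1. Within the deeper cells the median depths still differed, at 6578 UMIs with and 3615.5 without a Reg3a UMI. Split by Reg2, Reg3b was 2.23 times higher in cells with a Reg2 UMI (1.53 to 3.38), by 2.14 (1.33 to 3.69) among the deeper cells and 1.67 (0.886 to 3.46) among the shallower. Counting intervals treat UMIs of a cell as independent and are too narrow for such splits.

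**Figure D5:**
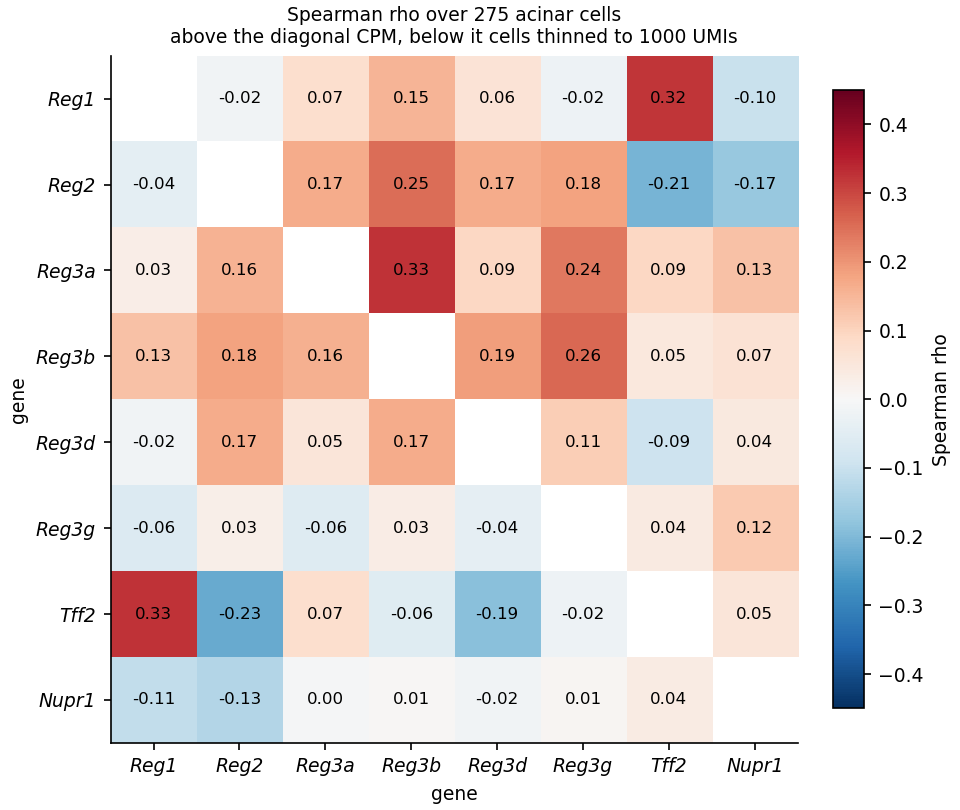
Spearman's rho between the 6 Reg genes, Tff2 and Nupr1 over 275 acinar cells, from CPM above the diagonal and from cells thinned to 1000 UMIs below it, as a description without a test. Reg1 with Tff2 keeps its value (0.323 and 0.326), whereas Reg3a with Reg3b falls from 0.326 to 0.160.

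The genes most like each Reg gene were ranked among 240 genes seen in at least 25% of acinar cells, with the 10 rule enzymes and mitochondrial and ribosomal protein genes left out. Reg1 was most like the ribonuclease gene Rnase1 (rho 0.401), 2210010C04Rik (0.383) and Zg16 (0.352), a zymogen granule lectin. With the enzymes off the totals these values were 0.248, 0.366 and 0.459, so their order depends on the scale. Among the ranked genes the lowest were H2-K1 (-0.145), a class I antigen-presenting molecule, and Pnliprp1 (-0.141), the latter at 0.0560 with the enzymes off the totals. Among the genes most like Reg2 were Ctrl (0.347), a protease, and Cel (0.280), a lipase, and the lowest of the ranked genes were Tpt1 (-0.264) and Gm10076 (-0.252). Among the rule enzymes, which were not ranked, Reg2 had its lowest value with Clps (-0.305) and Reg1 with Cela3b (-0.195), both below those of the ranked genes. Reg3a and Reg3b each had the other as the gene most like it. The next for Reg3a were Srp9 (0.270) and Bola2 (0.257), and for Reg3b Reg2 (0.253) and Gm10036 (0.242). Reg3d was most like Pdia2 (0.229), a pancreatic protein disulfide isomerase, Ctrl (0.219) and Manf (0.208). The medians over all ranked genes ran from -0.0713 for Reg2 to 0.111 for Reg3a.

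Most Reg genes had a lower level under barcode ending 2, which no label ties to a replicate. Reg3b stood at 310 CPM (222 to 421) in the 46 acinar cells under ending 2 and at 860 CPM (805 to 918) in the 229 under ending 1, a ratio of 0.360 (0.257 to 0.493). Reg3a had a ratio of 0.249 (0.0902 to 0.552) and Reg3d of 0.616 (0.404 to 0.906). For Reg3d the interval included 1 with the enzymes off the totals (0.703, 0.461 to 1.03) and without shared barcodes (0.664, 0.383 to 1.08). Reg3g had 0 of its 54 UMIs under ending 2, at least 2.27-fold lower if 3 counts over that set are the limit for a 0. The exact interval of its ratio ran from 0 to 0.560, so a fall of less than 2-fold lies within it. Reg2 had a ratio of 0.520 (0.443 to 0.607), which was 0.751 (0.629 to 0.889) without the 14 cells of shared barcodes. Reg1 differed less, at 18796 against 22538 CPM, a ratio of 0.834 (0.800 to 0.869), and for Tff2 the ratio was 0.942 (0.876 to 1.01). The median gene was also lower under ending 2, by a log2 ratio of -0.380, against -0.262 for Reg1 and -0.0848 for Tff2. Reg1 was therefore not lower than the median gene. With the enzymes off the totals, Reg1 had a ratio of 0.952 (0.913 to 0.992) and Tff2 of 1.08 (0.9999 to 1.16). On that scale Reg2 had 0.594, Reg3a 0.284 and Reg3b 0.411. By the 2-fold rule 3 of 6 Reg genes (Reg3a, Reg3b and Reg3g) were lower, as were 28.6% of genes tested, and 5.24% were higher. With the enzymes off the totals these shares were 24.3% and 7.93%, and without the shared barcodes 31.2% and 5.12%. In those settings the bound for Reg3g was 1.99-fold and 1.29-fold, so only Reg3a and Reg3b were at least 2-fold lower whatever the limit taken for a 0. Of the 46 cells, 44 were in the cluster led by Clps, and within that cluster the ratios were 0.320 for Reg3b, 0.237 for Reg3a, 0.595 for Reg2 and 0.807 for Reg1, where 17.6% of genes were at least 2-fold lower and 4.85% higher. What the endings stand for cannot be told from the labels.

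A list of 27 genes around Reg signalling and induction (receptors, cytokine receptors, JAK and STAT genes, NF-kB and feedback genes) held 23 genes in the table, of which 12 had at least 50 UMIs. None of the 12 was at least 2-fold higher in acinar cells (3.85% of all genes were), 11 were lower and 1 was between, with 85.3% of all genes being lower, so the count is near that background. The list had a median log2 ratio of -3.27, against -2.57 over all genes. The 1 between was Extl3, a proposed Reg receptor, with 34.8 CPM in acinar and 24.7 in other cells, a ratio of 1.41 (0.853 to 2.35). Stat3, the transcription factor through which interleukin 6 acts on Reg3 genes, had 14 UMIs in acinar and 64 in other cells, a ratio of 0.218 (0.113 to 0.392). The ratios of the 11 ran from 0.0226 for the interferon gamma receptor Ifngr1 to 0.378 for the leukaemia inhibitory factor receptor Lifr. The interleukin 6 co-receptor Il6st stood at 0.114 (0.0550 to 0.213) and the feedback inhibitor Socs3 at 0.0479 (0.0128 to 0.127). Cebpb, with 17 and 11 UMIs, was below the minimum. These regulators were near the detection limit in acinar cells, where a count of 0 allows up to 2.54 CPM.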

How the data were processed

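The authors deposited 1 table of raw UMI counts per gene and cell, per the file's whole-number values. Cell Ranger and mm10 are named in the submitters' processing notes, with no version or filter stated. The table has 14793 gene rows, and 4 symbols on 2 rows were summed. No column of cells was left out (0 others), and no label says which cell came from which of the 2 samples, so the 728 cells were treated as 1 sample and no test was run. The members and lists were chosen with earlier results of these data known.

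UMIs were summed over cells and scaled to CPM. Intervals are exact (Poisson, Clopper-Pearson for shares, conditional for ratios) at 95%. Log2 ratios used a prior of 0.5 counts and a floor of 50 UMIs. A count of 0 was given the limit of 3 counts. Thinning to 1000 UMIs left out 0 cells. Clusters came from scanpy 1.11.5 (Python 3.11.15, 2000 variable genes without the Reg genes, 20 components, 15 neighbours, Leiden at 0.5, seed 0), named from marker lists. Scrublet called 3 doublets, which were kept. The estimator of the spread was chosen after a version using the pooled level had given its values, and both are reported. Named genes were the members, Tff2, Nupr1, list genes with at least 50 UMIs, and for Reg genes seen in at least 25% of acinar cells the 3 most and 2 least alike genes. One gene that this rule names is not reported here. Stat3 and Il6st were named as part of that list, Cebpb after its values were seen. Transcripts and positions are from GENCODE M21 (GRCm38) and promoters from RefSeq. Scripts were tested on simulated data.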

Additional observations from a re-analysis of the deposited data

How the results depend on the processing

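The summed Reg level in acinar cells (25839 CPM) was 25464 with an acinar rule of 5%, 55376 over UMIs outside the enzymes, 26227.5 without shared barcodes, 26491.5 under ending 1, 20671 under ending 2 and 24354 with cells weighted equally. In other cells (757 CPM) it was 875 with a rule of 30%, 1265 under ending 2 and 927 with equal weights. The ratio of the 2 was 29.7, 72.2 and 16.3 with the 30% rule, without enzyme UMIs and under ending 2. The share of acinar cells with a Reg3 UMI (74.5%) was 58.7% under ending 2 and 53.5% after thinning. The median correlation over the 15 pairs fell to 0.0346 after thinning, and Reg UMIs per enzyme UMI, other over acinar cells, stood at 1.39 under ending 2. All 6 members passed the 2-fold rule, acinar over other cells, in each setting run except ending 2 alone. There only 2 members, Reg1 and Reg2, reached the UMI floor, and both passed. The Reg3 genes were below the floor under ending 2, so the rule could not be applied to them. Their acinar UMIs there were 6 for Reg3a, 41 for Reg3b, 28 for Reg3d and 0 for Reg3g, with 0 in other cells. The median correlation with Tff2 over the 6 genes (0.0449) was -0.0387 after thinning. Median spread and the pathway count stayed within their tolerance under each alternative that gave a value. Under ending 2 neither gave a value, nor did the spread after thinning. Single genes were less stable than these medians, and 7 of 36 spread values moved past the tolerance. Of 106 correlations with Tff2 and Nupr1, 12 moved past it and 11 changed sign. Among the Reg genes, 13 of 130 moved past it and 11 changed sign. Leaving out the 5 deepest cells, leaving out the cluster led by Cel and Cela2a or the acinar-like cells outside the rule, and counting variance from the pooled level were chosen after seeing the data. No paired analysis was possible because cells could not be tied to the replicate numbers, and for the same reason no replicate could be left out. With 1 pooled sample, nothing here measures variation between mice, and Reg3g, with 54 acinar UMIs, is limited by depth.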
